A study of Homo sapiens with 4 samples.

Results

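The mRNAs of 8 genes of regulated exocytosis were measured in PC3 and DU145 cells with or without knockdown of ESS2, a nuclear protein of RNA splicing complexes. The genes were the 5 synaptotagmin-like genes SYTL1, SYTL2, SYTL3, SYTL4 and SYTL5, the small GTPase genes RAB27A and RAB27B, and RAB3D of the neighbouring RAB3 group. They were selected by name, because SYTL4 was among the largest differences between PC3-shESS2 and PC3-shC cells, so all values of that comparison are a description and none was tested. The 8 genes had 12 features (probes) on the array, out of 25122 genes with a symbol and 58201 features. PC3 and DU145 are established lines of human prostate cancer. Each line carried either an shRNA against luciferase (PC3-shC and DU145-shC) or an shRNA against ESS2 (PC3-shESS2 and DU145-shESS2), and each of the 4 conditions had 1 array. Per the labels the shRNAs came by lentiviral transduction, whereas the methods give a plasmid and puromycin selection for PC3 cells, and whether the cells were a pool or 1 clone is not given in the sources used here. No ligand, drug or time course was part of these conditions.

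RAB27A and RAB27B sit on the membrane of secretory granules, lysosome-related organelles and late endosomes, and carry them to the cell surface. The synaptotagmin-like proteins are their effectors. The amino-terminal domain of these proteins holds the GTP-bound RAB and their paired C2 domains bind phospholipids of the plasma membrane, so that the vesicle is tethered before SNARE proteins fuse it. RAB3D works at the same step on granules of exocrine glands. In prostate and other epithelial cancers this machinery is known for the release of exosomes and of secreted enzymes.

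On all 4 arrays the 75th percentile of the signal lay between 212 and 290 fluorescence units and 50.8% to 52.6% of the spots were well above background. The lowest signal that counted as well above background was 8.15 to 9.02, and a feature under the test is called dim here. ESS2 itself had signals of 133 in PC3-shC, 53.6 in PC3-shESS2, 85.7 in DU145-shC and 17.3 in DU145-shESS2, which was 2.74-fold lower with the shRNA in PC3 and 5.09-fold lower in DU145. All 5 epithelial markers were well above background on every array, and CTNNA1, a gene that PC3 cells have lost, was dim on both PC3 arrays and at 4320 and 4810 on the DU145 arrays. The luminal prostate gene KLK3 was dim on all 4 arrays. Of the markers of other cells, 2 to 4 of 5 leukocyte genes (summed signal 140 to 339), 0 or 1 of 5 neuroendocrine genes (at most 33.3) and 2 or 3 of 5 fibroblast genes (94.0 to 295) were well above background. The only neuroendocrine marker seen was CHGA, a granule protein, at 16.7 in PC3-shESS2. It was dim on the other arrays. The markers of a list did not move together. In PC3 the leukocyte gene CD14 was lower with the shRNA (221 and 54.7) and in DU145 it was higher (172 and 274), whereas ITGAM was higher in both lines (9.53, dim, and 15.7 in PC3). Of the fibroblast genes in PC3, LUM was higher (9.90 and 48.8) and COL1A1 was lower (265 and 197). The epithelial gene EPCAM was 2120 in DU145-shC and 357 in DU145-shESS2, 6.11-fold lower, and 1.30-fold lower with the shRNA in PC3. The part of these genes in the results below was not tested.

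Among the 8 genes, SYTL4 had the largest ratio of knockdown over control in PC3, the comparison it was chosen on. It encodes granuphilin, which docks insulin granules in pancreatic beta cells by binding RAB27A and syntaxin. Its brighter feature gave signals of 14.9 in PC3-shC, 533 in PC3-shESS2, 116 in DU145-shC and 178 in DU145-shESS2. After scaling each array to its 75th percentile, SYTL4 was 32.4-fold higher in PC3-shESS2 than in PC3-shC, a log2 ratio of 5.02. The log2 ratio was 3.81 as the mean of its features and 2.91 with another background correction (normexp). That correction added an offset of 50 units to every spot, which shrinks ratios of low signals. In DU145 the log2 ratio was 0.58, or 1.49-fold higher with the shRNA. The control of PC3 was thus the lowest of the 4 arrays and the knockdown of PC3 the highest, with both DU145 arrays in between.

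The other SYTL4 feature was dimmer and gave the same direction. Its signals were 2.97 in PC3-shC and 10.4 in DU145-shC, both dim, against 59.9 in PC3-shESS2 and 18.3 in DU145-shESS2. With PC3-shC set at the lowest measurable signal, it was at least 6.08-fold higher with the shRNA in PC3. In DU145 it was 1.71-fold higher over the dim control's own signal, which lay above that floor, so this ratio is not a lower limit.

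SYTL4 ranked 4 of 16763 genes by its ratio in PC3 and 1231 of 16842 in DU145. Among the 15763 genes well above background on both PC3 arrays it ranked 2, after the chemokine gene CCL5 at a log2 ratio of 5.82 and before the keratin pseudogene KRT17P2 at 4.94. These ranks restate how the gene was chosen. For scale, features spotted 10 times had a median SD between spots of 0.046 in their log2 ratio in PC3 and 0.053 in DU145, and of 0.15 and 0.20 where the mean signal was under 100. This spread covers the spots of an array and neither the hybridisation nor the cells.

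**Figure D1:**
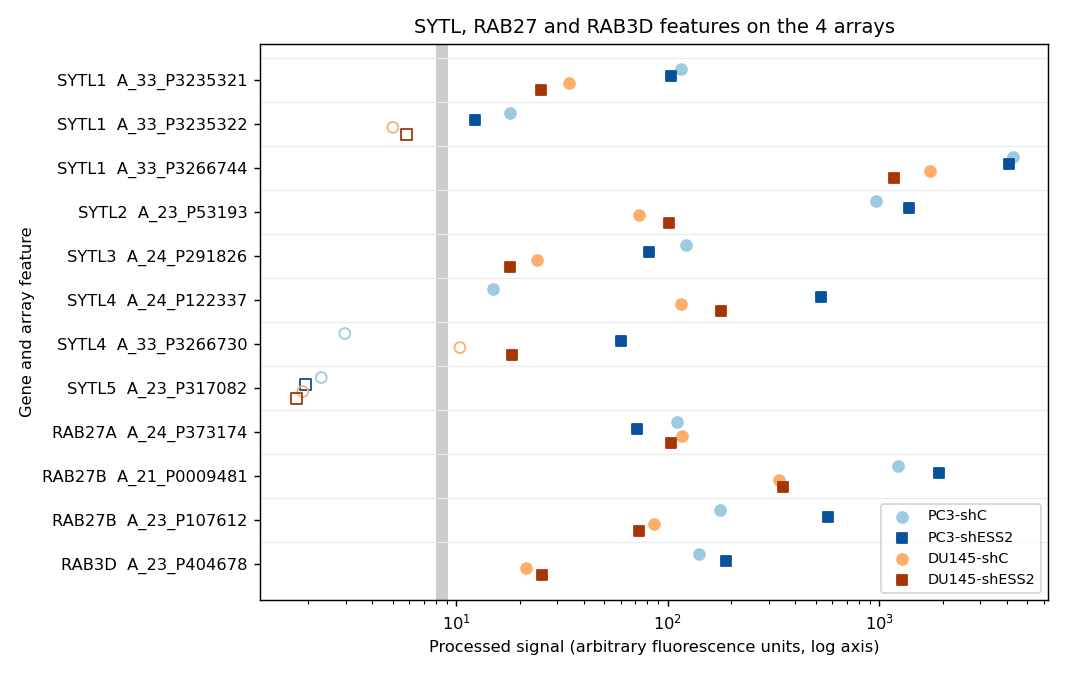
Processed signal (horizontal log axis, arbitrary fluorescence units) of the 12 features of the 8 genes, with 1 point for each of the 4 arrays. Open points were not well above background, and the grey band spans the lowest signals that were (8.15 to 9.02). The brighter SYTL4 feature spans 14.9 to 533, and SYTL5 is open on every array.

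The sequence before the start of SYTL4 is shown because this gene had the largest ratio among the 8 genes in PC3. RefSeq (GRCh38.p14) puts the 250 bases before 1 start of SYTL4 at chrX:100732122-100732371 on the minus strand. It was searched on both strands for motifs that are common near starts, a TATA box spelled TATAAA, which marks a fixed start site, and a GC box spelled GGGCGG, which factors of the SP family bind. It was searched as well for the CCAAT box, for an AP-1 site spelled TGANTCA, where N is any base, and for the NF-kB and interferon-stimulated response element consensus sequences. Capitals would mark a match, and this window holds none.

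SYTL4 upstream window: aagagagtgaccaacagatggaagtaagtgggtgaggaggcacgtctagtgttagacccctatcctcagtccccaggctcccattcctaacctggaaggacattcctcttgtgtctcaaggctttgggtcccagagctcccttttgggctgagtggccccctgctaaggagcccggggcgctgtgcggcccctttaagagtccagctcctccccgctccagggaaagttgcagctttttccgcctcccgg

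Of 35116 such windows of all genes, 10.7% hold the TATA box, 42.6% the GC box, 32.0% the CCAAT box, 6.57% the AP-1 site, 5.21% the NF-kB consensus and 3.02% the interferon-stimulated one. The SYTL4 window has 58.8% G and C, beside a median of 58.0% over all windows. A second RefSeq start of SYTL4, with its window at chrX:100731535-100731784, has 70.8% G and C and 3 GC boxes. They were counted on both strands, and any overlapping matches count apart. A match is a description of the letters, and binding of any factor was not measured here.

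Both RAB27 genes were measured in both lines, and their ratios in PC3 had opposite signs. RAB27A, the GTPase of melanosomes and of the lytic granules of T cells, gave 110 in PC3-shC, 71.8 in PC3-shESS2, 117 in DU145-shC and 104 in DU145-shESS2. This was 1.69-fold lower with the shRNA in PC3 and 1.16-fold lower in DU145. PC3-shESS2 had the lowest of the 4 signals, and none of the ratios reached 2-fold.

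RAB27B, known for the dense granules of platelets and for exosome release beside RAB27A, was read by a pair of features that gave ratios of different size in PC3. The brighter gave 1230 in PC3-shC, 1920 in PC3-shESS2, 337 in DU145-shC and 349 in DU145-shESS2, a log2 ratio of 0.50 (1.42-fold higher) in PC3 and 0.010 in DU145. The other gave 176, 574, 85.9 and 73.2 in the same order, a log2 ratio of 1.56 (2.96-fold higher) in PC3 and -0.27 (1.21-fold lower) in DU145. PC3-shESS2 was the highest array by both features. In DU145 the difference of the brighter feature was smaller than the median spot SD of 0.053. The mean of both features gave a log2 ratio of 1.03 in PC3, past 2-fold, and -0.13 in DU145.

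RefSeq lists 2 start windows for RAB27B, and both are shown because its features differed in PC3. They lie at chr18:54717607-54717856 and chr18:54828227-54828476, on the plus strand. Capitals mark the GC box in the first, read on the opposite strand, and the AP-1 site in the second. The windows have 50.4% and 56.0% G and C, and none of the other motifs searched.

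RAB27B upstream window, first start: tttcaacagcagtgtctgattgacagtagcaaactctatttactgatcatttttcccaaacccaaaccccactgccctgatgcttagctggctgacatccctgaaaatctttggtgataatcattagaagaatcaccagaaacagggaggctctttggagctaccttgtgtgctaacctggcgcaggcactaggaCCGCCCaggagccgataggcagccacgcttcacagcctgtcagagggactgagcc

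RAB27B upstream window, second start: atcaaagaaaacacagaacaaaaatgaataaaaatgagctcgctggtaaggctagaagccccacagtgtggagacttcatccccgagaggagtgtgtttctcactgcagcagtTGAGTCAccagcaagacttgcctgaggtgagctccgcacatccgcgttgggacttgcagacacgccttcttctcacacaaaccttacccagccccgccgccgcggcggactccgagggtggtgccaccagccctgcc

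The features carry no sequence in the files used here, so which RAB27B or SYTL4 transcript each one reads is not given. RefSeq windows were found for SYTL1, SYTL3, SYTL5, RAB27A and RAB3D as well, and SYTL2 had no entry.

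SYTL1, SYTL2 and SYTL3 stayed within 2-fold between knockdown and control in both lines by every feature measured. SYTL1, an effector known from neutrophil granules, gave 4270 in PC3-shC, 4110 in PC3-shESS2, 1730 in DU145-shC and 1170 in DU145-shESS2 by its brightest feature. It was 1.15-fold lower with the shRNA in PC3 and 1.52-fold lower in DU145. A further SYTL1 feature gave log2 ratios of -0.31 and -0.49, and the dimmest gave -0.69 in PC3 and was dim on both DU145 arrays, so every measured ratio of SYTL1 was below 0.

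SYTL2, which anchors RAB27A vesicles at the plasma membrane, gave 970 in PC3-shC, 1380 in PC3-shESS2, 72.8 in DU145-shC and 101 in DU145-shESS2. This was 1.29-fold higher with the shRNA in PC3 and 1.35-fold higher in DU145. SYTL3, which links lytic granules to kinesin in T cells, gave 122, 81.5, 24.1 and 17.9 in the same order. It was 1.65-fold lower with the shRNA in PC3 and 1.38-fold lower in DU145, the opposite sign to SYTL2 in both lines.

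SYTL5, the remaining member of the family, was dim on all 4 arrays with signals of 1.75 to 2.30, and no ratio was formed. RAB3D, found on zymogen granules of exocrine cells, gave 140 in PC3-shC, 189 in PC3-shESS2, 21.3 in DU145-shC and 25.5 in DU145-shESS2. It was 1.22-fold higher with the shRNA in PC3 and 1.16-fold higher in DU145, at low DU145 signals.

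Of the 8 members, 7 could be compared in each line. In PC3 1 of 7 genes, SYTL4, was higher by more than 2-fold and none was lower, where 3.88% of all genes compared were higher and 3.87% were lower. By single features, 3 of 11 were higher by more than 2-fold in PC3, both of SYTL4 and 1 of RAB27B, beside 4.13% of all features higher and 3.53% lower. As SYTL4 was selected on this comparison, nothing is read from these counts. In DU145 none of the 7 genes was past 2-fold, beside 2.36% of all genes higher and 2.47% lower, and none of 10 features, beside 2.4% higher and 2.65% lower. The median log2 ratio of the 7 genes was 0.29 in PC3 and 0.010 in DU145, beside -0.055 and -0.022 over all genes.

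**Figure D2:**
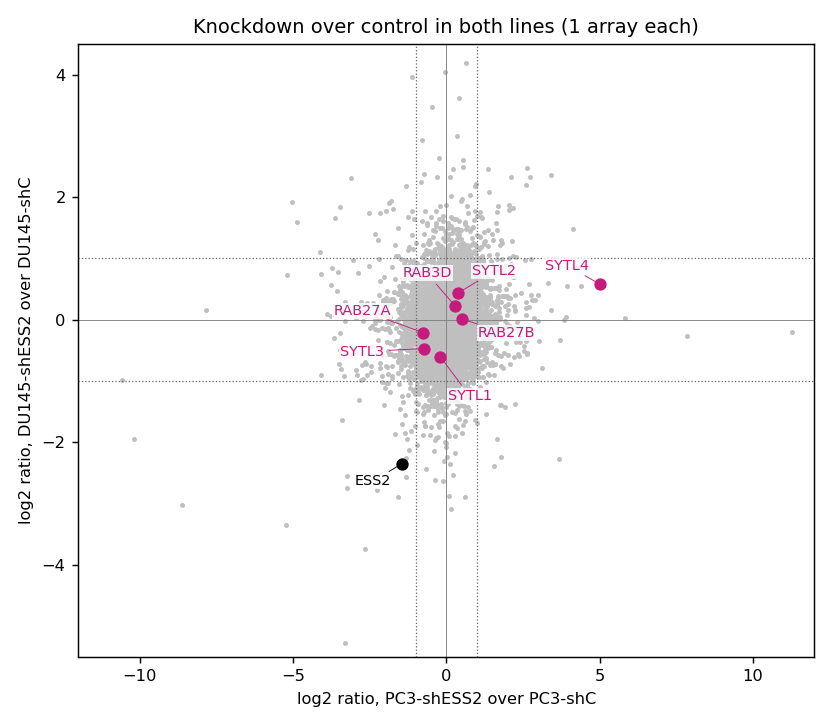
Log2 ratio of knockdown over control in PC3 (horizontal) and DU145 (vertical), 1 array each, for genes compared in both lines (grey), the members (magenta) and ESS2 (black). Dotted lines mark 2-fold. SYTL4 lies at 5.02 in PC3 and 0.58 in DU145, and the other 6 members lie within 2-fold in both lines.

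Whether the level of a member differed between the lines was tested with limma on the 2 PC3 arrays against the 2 DU145 arrays, 2 per line, over 17126 genes with Benjamini-Hochberg adjustment. SYTL4 was left out of this test because it was chosen on 1 of these arrays. Each line lies on a slide of its own, so line and slide cannot be told apart, and the 2 arrays of a line differ by the shRNA, so their spread includes the knockdown.

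Of the 6 members tested, 5 were higher in PC3 at an adjusted p under 0.05 and none was lower, where 28.5% of all genes were higher in PC3 and 22.9% were lower. SYTL2 had the largest difference, 10.5-fold higher in PC3, with a log2 difference of 3.39 ± 0.26 (SE, limma adjusted p = 0.00134). RAB3D was 5.43-fold higher, with a log2 difference of 2.44 ± 0.21 (SE, limma adjusted p = 0.00188). RAB27B was 3.49-fold higher, with a log2 difference of 1.80 ± 0.24 (SE, limma adjusted p = 0.00527). For these genes both PC3 arrays were above both DU145 arrays in scaled level. With normexp the log2 difference was 2.68 for SYTL2 and 1.05 for RAB3D, both still called.

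SYTL3 was 3.74-fold higher in PC3, with a log2 difference of 1.90 ± 0.33 (SE, limma adjusted p = 0.0107), and SYTL1 was 2.29-fold higher, with a log2 difference of 1.20 ± 0.27 (SE, limma adjusted p = 0.0221). With normexp the log2 difference of SYTL3 was 0.72, still called. Without the DU145-shESS2 array the limma adjusted p was 0.0539 for SYTL3 and 0.0863 for SYTL1. For SYTL1 it was 0.0707 without the PC3-shC array, 0.0681 with quantile normalisation and 0.0623 with the authors' scaled values, so 4 of 13 alternatives ended its call. A fit without 1 array takes its spread from the 2 arrays of the other line and from all genes, and assumes that the lone array varies alike. RAB27A was the one tested member with a lower level in PC3, by a log2 difference of -0.67 ± 0.31 (SE), and did not pass (limma adjusted p = 0.135). It passed with the authors' scaled values (0.0352) and without the PC3-shC array (0.0351), where the line had 1 array, PC3-shESS2. The median difference of all genes was 0.11, and every difference above keeps its sign relative to it.

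For SYTL4 the order of the lines turned with the shRNA. Its scaled level was 9.66-fold lower in PC3-shC than in DU145-shC and 2.25-fold higher in PC3-shESS2 than in DU145-shESS2, given without a test. For the other members the sign of the line difference was the same in the control arrays as in the knockdown arrays.

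**Figure D3:**
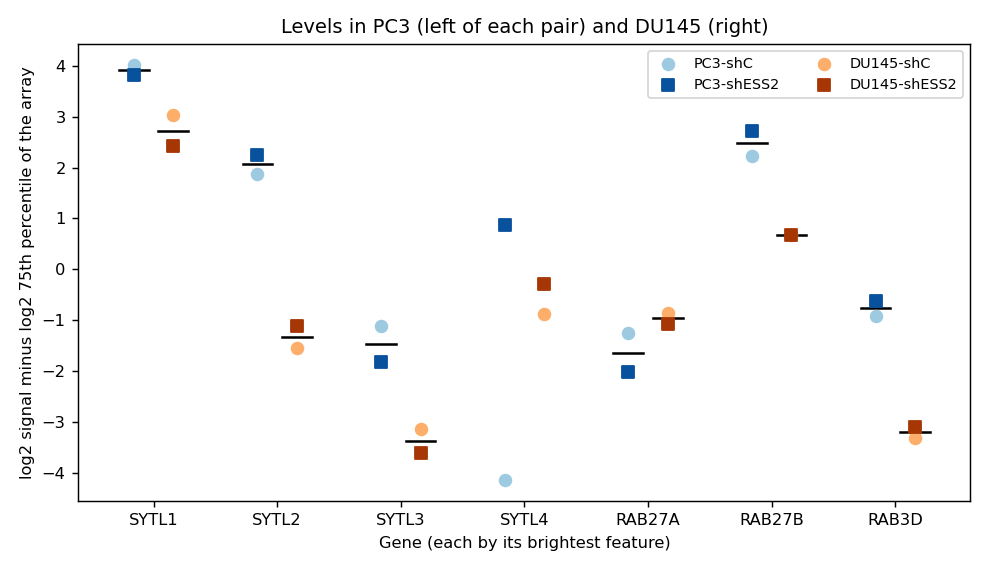
Scaled level (log2 signal minus the log2 75th percentile of the array) of the 7 members that were measured, each by its brightest feature, with PC3 left and DU145 right in each pair. Bars are means of the 2 arrays of a line and are left out for SYTL4, whose PC3 arrays lie on either side of the DU145 arrays. SYTL1, SYTL2, SYTL3, RAB27B and RAB3D are higher in PC3.

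The rest of the secretory machinery was described by 6 lists of 109 genes in all that hold none of the 8 members. In PC3 92 of them could be compared, of which 3 were higher and 2 were lower by more than 2-fold (5.43%), where 7.75% of all genes were past 2-fold. In DU145 93 could be compared, of which none was higher and 2 were lower (2.15%, beside 4.83% of all genes). The median log2 ratio was 0.064 in PC3 and 0.095 in DU145. Single lists lay on either side of the share of all genes, at counts of 0 to 2 genes a list and line.

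Among the other RAB27 effectors and regulators no gene of 9 was past 2-fold in PC3 and 1 of 10 was in DU145, with median log2 ratios of -0.14 and 0.16. The gene was EXPH5, a RAB27B effector of the skin, with signals of 1070 in PC3-shC, 883 in PC3-shESS2, 311 in DU145-shC and 120 in DU145-shESS2. Its log2 ratio was -1.41 in DU145 and -0.42 in PC3. MLPH (melanophilin), which joins RAB27A to myosin on melanosomes, had log2 ratios of -0.14 and 0.43.

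Of the RAB3 group and other secretory RABs, 1 of 13 genes was higher and 1 was lower in PC3 and none of 13 was past 2-fold in DU145, with medians of 0.037 and 0.010. RAB3B, a close relative of RAB3D, gave 11.0 in PC3-shC and 27.8 in PC3-shESS2, 2.29-fold higher, against 273 and 284 in DU145. RAB26, a GTPase of secretory granules, gave 528 and 165 in PC3, a log2 ratio of -1.82, against 4910 and 4890 in DU145. Both of these RAB genes had lower signals in PC3 than in DU145 on every array.

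Among the synaptotagmins and DOC2 genes, the calcium sensors of fusion, 1 of 11 was higher and 1 was lower in PC3, and none of 10 was past 2-fold in DU145, with medians of 0.027 and 0.16. SYT1, the main sensor of synaptic vesicles, was dim in PC3-shC (2.30) and at 20.2 in PC3-shESS2, at least 2.05-fold higher. SYT12 gave 1510 and 403 in PC3, a log2 ratio of -2.05, and 2420 and 4040 in DU145, a log2 ratio of 0.70. Its ratios had opposite signs in the 2 lines, and the difference was not tested.

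The SNAREs and fusion factors had 1 of 28 genes higher in PC3 and 1 of 29 lower in DU145, with a median of 0.21 in both lines. The first was VAMP1, a vesicle SNARE, with 17.0 in PC3-shC and 38.0 in PC3-shESS2, a log2 ratio of 1.02. The second was STXBP6 (amisyn), which binds syntaxin, with 25.0 in DU145-shC and 9.97 in DU145-shESS2, a log2 ratio of -1.37. None of the 9 exocyst subunits, which tether vesicles at the plasma membrane, was past 2-fold in either line, with medians of 0.081 and 0.057. None of the 22 genes of extracellular vesicle release was either, with medians of 0.043 and 0.088, and CD63, the tetraspanin by which exosomes are usually followed, had log2 ratios of 0.15 in PC3 and 0.27 in DU145.

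**Figure D4:**
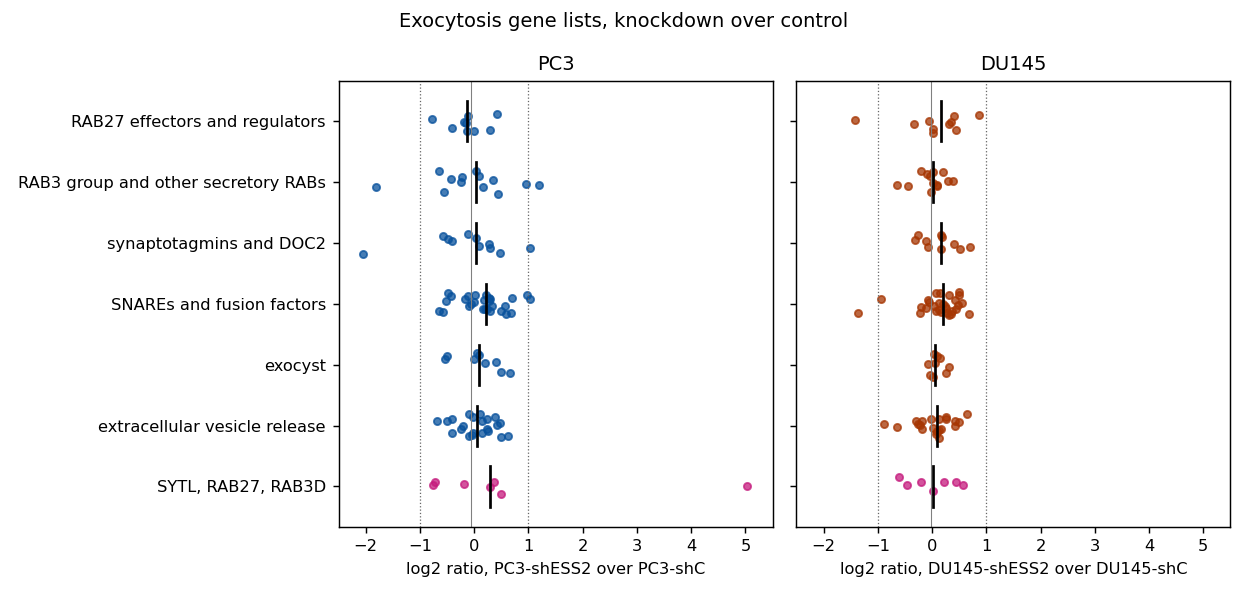
Log2 ratio of knockdown over control (horizontal) for each gene of the 6 lists and for the 7 members, in PC3 (left) and DU145 (right), 1 point per gene. Black bars are list medians, the grey line is the median of all genes and dotted lines mark 2-fold. SYTL4 at 5.02 in PC3 lies apart from every other gene shown, and all members lie within 2-fold in DU145.

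The genes with the profile nearest to SYTL4 over the 4 arrays were found by the Euclidean distance between log2 levels, each gene centred on its own mean, among 18127 genes. The nearest was ADRA1B, an adrenergic receptor, at a distance of 1.49, with 12.8 in PC3-shC, 113 in PC3-shESS2, 70.5 in DU145-shC and 96.4 in DU145-shESS2. IFFO1, FAM25A, LOC105369306 and the vault RNA gene VTRNA1-1 followed, at 1.65 to 1.90. Before scaling, all 5 had their lowest signal in PC3-shC and their highest in PC3-shESS2, as SYTL4 had. They were picked for likeness to SYTL4, so this order is no separate result. Once scaled to the 75th percentiles of 218 and 290, ADRA1B was higher in DU145-shESS2 than in PC3-shESS2. In PC3-shC LOC105369306 (5.92) and VTRNA1-1 (6.8) were dim. With quantile normalisation 2 of these 5 were still among the nearest 5, and with normexp none was.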

How the data were processed

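RNA of 4 conditions, 1 array each, was labelled with Cy3 from 0.1 µg and hybridised to 1-colour Agilent arrays. The authors deposited the intensity of each spot as read by Feature Extraction (12.1 for PC3, 12.0 for DU145), background-subtracted and not scaled between arrays. The authors also deposited a table of scaled intensity, each column of which equals the processed signal times 1 constant. Control and outlier spots were left out, spots of a feature were averaged, and log2 values were scaled to the 75th percentile of each array. A gene stood by its feature with the highest mean. Genes were compared in a line when well above background on at least 1 array, with dim values at the lowest signal well above background or their own if higher. Features were named by accession through RefSeq, 35080 of 58201 matching. With 1 array per condition no test was made within a line. PC3 and DU145 were compared with limma 3.58.1 in R 4.3.3, over genes that 2 or more arrays measured well above background. Genes named from the lists were up to 3 past 2-fold in each direction, list and line, and a few others for their role. The members, lists and tests were chosen with earlier results of these data known. Alternatives were other scalings, background correction, filters, the mean of a gene's features and leaving out arrays. Calculations were tested on simulated data, with Python 3.11.15, numpy 2.4.6, pandas 2.3.3 and matplotlib 3.10.9.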

Additional observations from a re-analysis of the deposited data

Results flagged for a closer look

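The second RAB27B feature (A_23_P107612) had opposite signs in the 2 lines, with a log2 ratio of knockdown over control of 1.56 in PC3 and -0.27 in DU145. Each ratio rests on 1 array against 1 array, and the difference was not tested. The brighter RAB27B feature gave 0.50 and 0.010.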

How the results depend on the processing

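Replicates could not be paired because each condition has 1 array and the labels carry no replicate numbers. The lines could be paired by shRNA, which the main fit does not do. With the shRNA as a term in the fit, which does so, the same 5 members differed between the lines and RAB27A did not (limma adjusted p = 0.0864). The ratios of all 7 members kept their sign over 9 alternatives in both lines, except RAB27B in DU145 (0.010 to 0.052, and -0.13 with the mean of features), and SYTL4 in PC3 ranged from 2.91 to 5.11. The members past 2-fold in PC3 were 1, but 2 (SYTL4 and RAB27B) with the mean of a gene's features. With each feature on its own, 3 features were. Genes of the 6 lists past 2-fold in PC3 were 5, but 3 with median scaling, 3 with quantile normalisation and 2 with normexp. They were 4 with the mean of features or the filter on both arrays, and 7 with the authors' values or no filter on dim genes. In DU145 they were 2, but 1 with normexp and 1 with the mean of features. They were 3 there with the plain signal of dim spots and 5 with no filter on dim genes. Of the members 3 to 5 differed between the lines when 1 array was left out, with 3 without DU145-shESS2. SYTL1 was not called with quantile normalisation (adjusted p = 0.0681) or the authors' values (0.0623), and RAB27A was called with the latter (0.0352). Normexp lowered the log2 line difference of SYTL3 from 1.90 to 0.72, of RAB3D from 2.44 to 1.05 and of SYTL2 from 3.39 to 2.68. The offset of 50 units that it adds to every spot shrinks ratios of low signals. Of the 5 genes nearest to SYTL4, 2 were shared with quantile normalisation and 0 with normexp. Over all genes in PC3, 650 were higher and 649 lower by 2-fold, 511 and 803 (38.9%) with median scaling, 792 and 535 (59.7%) with the authors' values, 248 and 323 with normexp, and 1431 and 1193 with no filter. In DU145 48.8% of them were higher, and 64.4% with normexp. Median scaling moved the median ratio of all genes in PC3 from -0.055 to -0.16 and the median line difference from 0.11 to 0.50, and the authors' values moved the latter to -0.30. Line calls over all genes were 8802, and 5220 to 5513 without either DU145 array. The causes were not tested. Values near a signal of 9.02 are limited by background, and 1 array per condition limits the precision.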

Other observations

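Genes near SYTL4 on chromosome X, taken in the order of the RefSeq table after the value of SYTL4 was known, were also read. TSPAN6, a tetraspanin, had log2 ratios of knockdown over control of -0.24 in PC3 and 0.13 in DU145. SRPX2 had -0.37 and -0.76, and CSTF2, a factor of mRNA cleavage and polyadenylation, had 0.087 and -0.19. XKRX was 1.99-fold lower in PC3-shESS2 than in PC3-shC, at signals of 11.0 and 19.9. TNMD and NOX1 were dim on all 4 arrays, and PCDH19 was dim on both PC3 arrays. None of the 4 genes compared in PC3 was higher by 2-fold in either line.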
